A study of Mus musculus with 10 samples.

Results

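Retinol metabolism genes were taken as the rows of the deposited table that carry an Ensembl identifier and the KEGG pathway ko00830 (Retinol metabolism), without the glycolysis pathway ko00010. The rule gave 104 of the 29583 rows, or 104 of the 22036 rows with an Ensembl identifier. It left out 6 rows that also carry ko00010, all for alcohol dehydrogenases (Adh genes), and 1 newly assembled locus. Of the 104 genes, 33 encode enzymes that act on retinoids, 44 encode broad cytochrome P450 enzymes, 19 encode UDP-glucuronosyltransferases and 8 are other genes that KEGG places in the pathway.

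RNA came from MC3T3-E1 cells, subclone 14, a clonal line of osteoblast precursors derived from the skull of newborn C57BL/6 mice, treated at what the labels call the third generation. Cultures received β-ecdysterone, a plant and insect steroid, at 0, 100, 150 or 200 μM over 5 or 10 days. All libraries share the line, the generation and the standard medium, and since the line is 1 clone, they do not come from different animals. The source field of the labels names bone marrow mesenchymal stem cells, while the titles name MC3T3-E1. Each dose and day is represented by 1 library, so 6 treated libraries (3 doses on each of 2 days) were compared with 2 libraries at 0 μM, and doses served as replicates. The p-values therefore measure the spread between these libraries, and the 2 libraries at 0 μM set the reference on both days. A further 2 libraries, A-5 and B-4, are labelled untreated without a day or dose and were kept out of the main comparison.

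Vitamin A enters cells as retinol. Retinol dehydrogenases oxidize it reversibly to retinal, short-chain reductases turn retinal back to retinol, and retinal dehydrogenases oxidize retinal irreversibly to retinoic acid, the ligand of the nuclear receptors RAR. The Cyp26 enzymes hydroxylate retinoic acid and so remove it, and in the skeleton Cyp26b1 is known to limit retinoic acid around developing bone. Broad P450 enzymes and glucuronosyltransferases are listed in the same pathway because they can act on retinoids, but they handle many drugs and lipids and are best known from liver.

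The 8 libraries compared held between 27108562 and 58218009 counts and the untreated libraries 28772087 and 29789271 counts. Levels are given as CPM, counts scaled to a common normalized library size, or as FPKM, the deposited value per length of transcript and library size, when genes are compared with each other. A count of 0 allows up to 3 counts, or 0.0950 CPM in the shallower library at 0 μM. Intervals of this kind cover counting error only. Of the 7 osteoblast markers listed, Col1a1 was between 3394 and 11505 CPM in every library, while Alpl had 0 and 2 counts at 0 μM. Runx2, Sp7, Alpl and Ibsp were called higher in treated cells, and Col1a1 and Bglap were not called. Spp1 was lower in 6 of 6 treated libraries (log2 fold change -0.56, adjusted p = 0.032 by edgeR), under the fold limit. The summed level of 8 hepatocyte markers was 0.0786 to 0.760 CPM in treated cells and 0.127 to 0.138 CPM at 0 μM, with Ttr, Fgb and Ahsg at 0. Of these 8 only Hnf4a, a liver transcription factor, could be tested. It had 0 counts in both libraries at 0 μM and 0 to 26 counts in treated libraries, at least 2.06-fold higher (adjusted p = 0.036 by edgeR). The summed level of 6 adipocyte markers was 2.64 to 5.66 CPM in treated cells and 1.90 to 2.15 CPM at 0 μM, and Adipoq and Cidec were at or near 0. Lep, which encodes leptin, was the 1 adipocyte marker of 4 tested that was called higher, at 0.0394 and 0.0633 CPM at 0 μM and 0.316 to 1.36 CPM in treated cells (adjusted p = 0.0042 by edgeR). The summed level of 4 muscle markers was 3.77 to 7.95 CPM in treated cells and 1.74 to 2.21 CPM at 0 μM, with Des called higher. The part of these other cell types in the results below was not tested. In bulk RNA, more cells of a kind and more RNA per cell cannot be told apart.

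Of the 104 retinol metabolism genes, 25 had 0 counts in all 10 libraries, 34 reached at most 9 counts in any library and 45 reached 10 or more. The filter of edgeR on low counts left 42 genes to test, 23 of the 33 retinoid enzymes, 11 of the 44 broad P450 genes, 4 of the 19 glucuronosyltransferases and 4 of the other 8. The remaining 62 genes include Aldh1a2 (another retinal dehydrogenase), Rdh7 and Sdr16c5 at 0 counts in every library, and Lrat, which stores retinol as ester, with 2 counts in A-5 alone. The fit of edgeR (quasi-likelihood) set treated cells against 0 μM and allowed for day, and p was adjusted over all genes tested after Benjamini-Hochberg. The limits for a call were an adjusted p under 0.05 together with a change of more than 1 on the log2 scale. In treated cells, 17 of the 42 tested genes (40.5%) were called higher, where 13.4% of all 16794 genes tested were. Called lower were 2 of the 42 (4.76%), where 5.98% of all genes were. The median log2 fold change was 0.93 over the 42 genes and 0.05 over all genes. A gene absent at 0 μM could pass the filter through treated cells alone, so these shares describe the tested genes and not all members. Among the 23 tested retinoid enzymes 10 were called higher and 2 lower, against 5 and 0 of 11 broad P450 genes, 1 and 0 of 4 glucuronosyltransferases and 1 and 0 of 4 other genes. By role, 5 of 7 genes for retinoic acid synthesis, 1 of 3 for its breakdown and 4 of 10 for interconversion of retinol and retinal were called higher, and none of the 3 tested genes for esterification and saturation was.

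**Figure D1:**
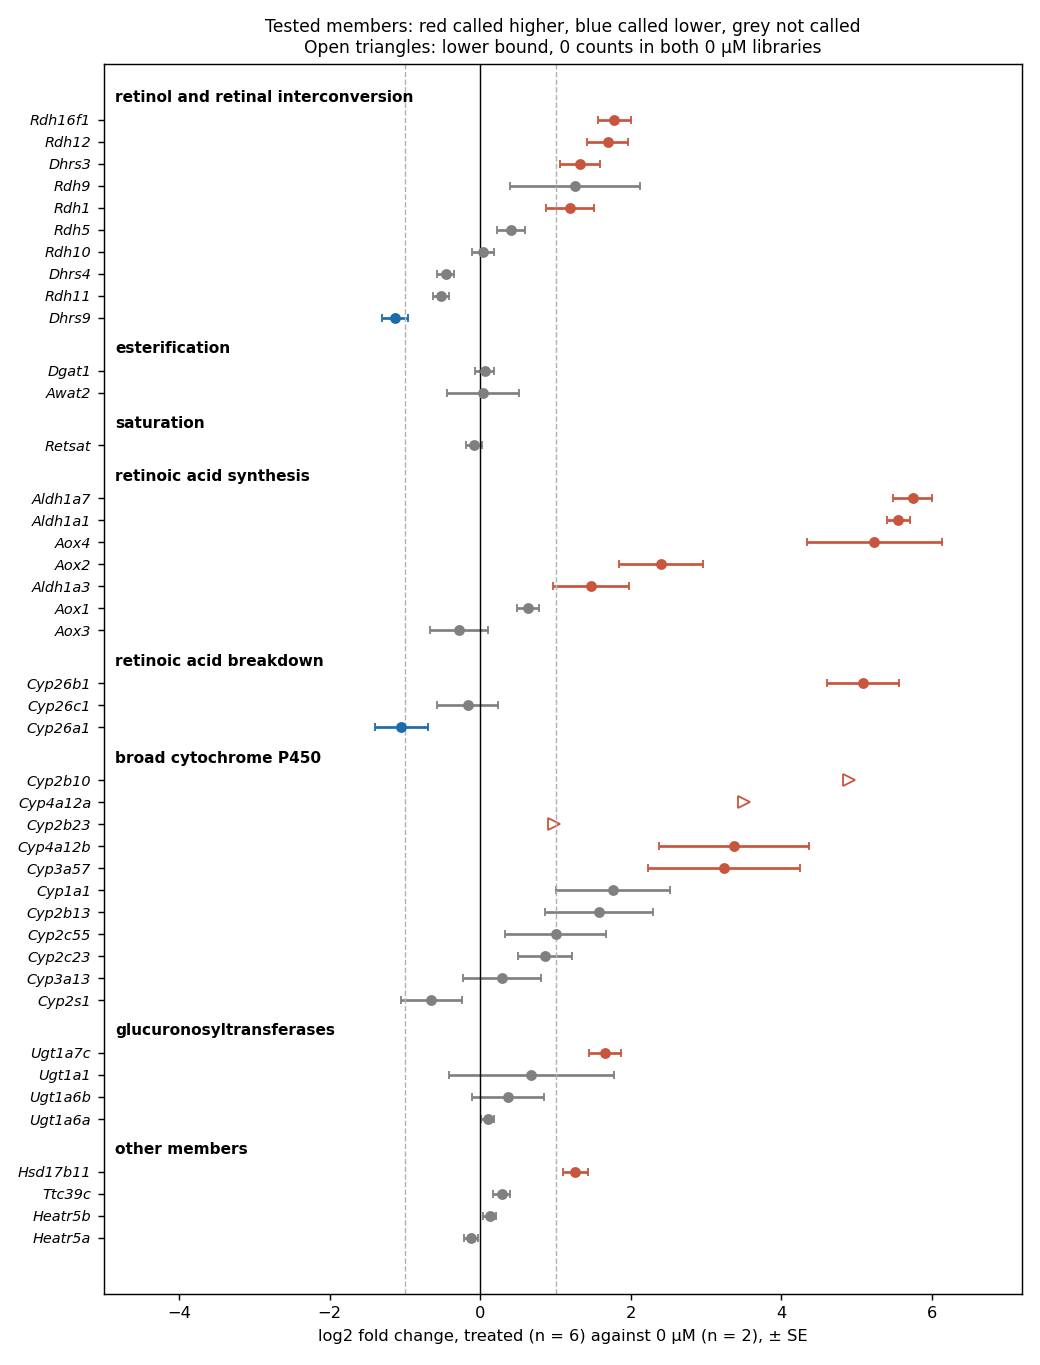
Log2 fold change (x axis) of each of the 42 tested genes between 6 treated libraries and 2 at 0 μM, grouped by role, with the standard error as bars and dashed lines at -1 and 1. Red points were called higher, blue points lower, grey points neither, and open triangles are lower bounds for 3 P450 genes with 0 counts at 0 μM. Aldh1a7, Aldh1a1, Aox4 and Cyp26b1 lie beyond 5.

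Among the tested retinoid enzymes, Aldh1a7, Aldh1a1, Aox4 and Cyp26b1 had the highest fitted log2 fold changes, and 3 broad P450 genes without counts at 0 μM have only lower bounds. Aldh1a1, which oxidizes retinal to retinoic acid, was at 3.93 CPM on day 5 and 3.99 CPM on day 10 without treatment. With 100, 150 and 200 μM it was at 172, 184 and 180 CPM on day 5 and at 227, 176 and 180 CPM on day 10. All 6 treated libraries lay far above both libraries at 0 μM, and neither dose nor day ordered them. The log2 fold change was 5.55 ± 0.16 (SE; adjusted p = 6e-08 by edgeR's quasi-likelihood test), a fold of 47.0.

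Aldh1a7, a rodent copy of Aldh1a1, is listed here with retinoic acid synthesis, although its enzyme is not known as a retinal dehydrogenase. It was at 1.18 and 0.665 CPM at 0 μM, at 39.6, 53.7 and 46.3 CPM on day 5 and at 57.9, 60.2 and 59.7 CPM on day 10. The treated libraries did not overlap those at 0 μM, and those of day 10 lay above those of day 5. Its log2 fold change was 5.74 ± 0.26 (SE; adjusted p = 6.2e-07 by edgeR), and 5.29 to 6.47 with each library left out in turn. Aldh1a1 (ENSMUSG00000053279, chromosome 19, 20492715 to 20643465, plus strand) and Aldh1a7 (ENSMUSG00000024747, chromosome 19, 20692953 to 20727562, minus strand) are neighbours on facing strands in GENCODE M21. Their longest coding transcripts were 89.1% identical over 2041 aligned bases, with a longest identical run of 100 bases, so some reads could be assigned to either gene. The FPKM ratio of Aldh1a1 to Aldh1a7 was 4.50 and 8.92 at 0 μM and 3.75 to 5.92 in treated cells.

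Since both genes rose together, the 250 bases before their starts are shown from RefSeq, for Aldh1a1 those before the start nearer to Aldh1a7. Capitals mark TGACCC, the reverse complement of GGGTCA, a spelling of the 6-base motif that nuclear receptors bind in pairs.

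Aldh1a1 (GRCm38.p6, chr19:20601718-20601967, + strand): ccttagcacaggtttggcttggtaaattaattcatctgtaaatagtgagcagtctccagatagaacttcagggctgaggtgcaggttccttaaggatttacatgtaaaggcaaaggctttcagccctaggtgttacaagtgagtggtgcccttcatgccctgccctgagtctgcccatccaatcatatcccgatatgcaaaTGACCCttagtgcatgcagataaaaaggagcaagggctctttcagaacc
Aldh1a7 (GRCm38.p6, chr19:20727557-20727806, - strand): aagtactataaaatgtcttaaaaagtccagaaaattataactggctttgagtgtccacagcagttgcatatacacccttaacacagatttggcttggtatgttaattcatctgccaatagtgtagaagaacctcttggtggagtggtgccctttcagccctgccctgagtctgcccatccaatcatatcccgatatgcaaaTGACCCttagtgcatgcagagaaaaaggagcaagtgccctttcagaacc

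The promoters were 73.6% identical over 235 aligned bases, with an identical run of 65 bases, and both hold the motif at position 202 of the window. GGGTCA stood on either strand in 11.7% of all 32851 RefSeq promoter windows of this length, so the match alone is common. The other RefSeq start of Aldh1a1, further upstream, has no such motif in its window.

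Aldh1a3, another retinal dehydrogenase, was a minor contributor, at 0.197 and 0.253 CPM at 0 μM and at 0.375 to 1.10 CPM (median 0.597) in treated cells, all above the values at 0 μM. Its log2 fold change of 1.47 ± 0.50 (SE; adjusted p = 0.038 by edgeR) rested on 8 to 39 counts per library, and it was no longer called without either library at 0 μM, nor without 4 of the treated libraries, those at 100 and 200 μM of each day. Together the Aldh1a genes rose from 2.83 and 2.89 summed FPKM at 0 μM to between 118 and 145 in treated cells, of which Aldh1a1 made up 78.9% to 85.5%.

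The aldehyde oxidases, which can also oxidize retinal, lie in a cluster on chromosome 1 and differed among themselves. Aox4 (58210397 to 58268597), known from skin glands, had 10 counts at 0 μM on day 5 (0.197 CPM) and 0 counts on day 10. It was at 1.40, 4.02 and 1.95 CPM on day 5 and at 6.45, 10.4 and 12.6 CPM on day 10 with 100, 150 and 200 μM. No treated library overlapped those at 0 μM, and every library of day 10 was above every library of day 5. The log2 fold change was 5.23 ± 0.90 (SE; adjusted p = 0.0013 by edgeR). It was 3.65 without 0 μM of day 10 and 11.63 without 0 μM of day 5, where no count at 0 μM remained, so its size is poorly set. The call was lost with limma on log2(FPKM + 1) and with A-5 alone in place of 0 μM (adjusted p = 0.061). Aox2 rose from 0.0394 and 0.127 CPM to between 0.216 and 0.597 CPM (log2 fold change 2.40, adjusted p = 0.0065 by edgeR), and the call was lost without 0 μM of day 5 (adjusted p = 0.066). Aox1, the family's most abundant gene here, was at 33.5 and 36.1 CPM at 0 μM and at 38.5 to 62.6 CPM in treated cells, above 0 μM of the same day in 6 of 6 libraries, and its log2 fold change of 0.64 ± 0.15 (SE; adjusted p = 0.0062 by edgeR) stayed under the fold limit. Aox3 showed a log2 fold change of -0.28 ± 0.39 (SE) and overlapping groups.

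**Figure D2:**
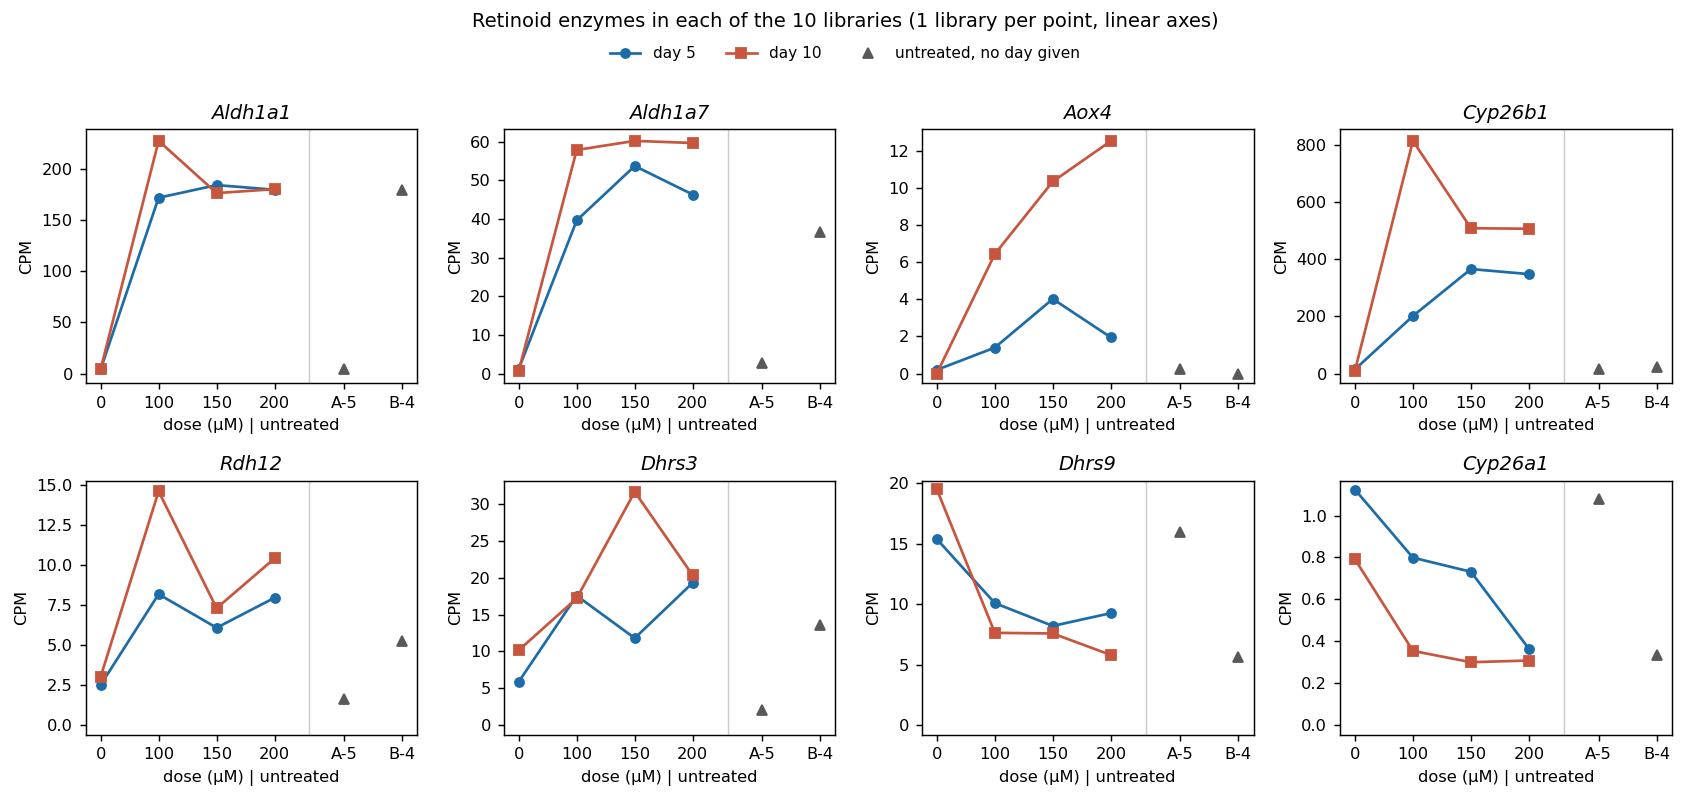
CPM (y axis, linear and scaled per panel) of 8 retinoid enzymes against the dose in μM, with 1 library per point, lines joining the doses of a day, and the untreated libraries A-5 and B-4 at the right. Aldh1a1, Aldh1a7, Aox4, Cyp26b1, Rdh12 and Dhrs3 are higher and Dhrs9 lower at every dose than at 0 μM, and B-4 has 179 CPM of Aldh1a1 but 23.6 CPM of Cyp26b1.

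Among genes for retinoic acid breakdown, Cyp26b1 was called higher and Cyp26a1 lower. Cyp26b1 (ENSMUSG00000063415, chromosome 6, 84571414 to 84593908, minus strand), a retinoic acid hydroxylase, was at 14.4 CPM on day 5 and 9.53 CPM on day 10 at 0 μM. With 100, 150 and 200 μM it reached 201, 366 and 348 CPM on day 5 and 815, 509 and 507 CPM on day 10. All 6 treated libraries were above both at 0 μM, and all 3 of day 10 were above those of day 5. The log2 fold change was 5.08 ± 0.48 (SE; adjusted p = 3.8e-05 by edgeR), and the 3 doses averaged 305 ± 90.2 CPM (SD, n = 3) on day 5 and 610 ± 177 CPM (SD, n = 3) on day 10.

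Cyp26a1, the relative most often used as a reporter of retinoic acid, went the other way at low levels. It was at 1.12 and 0.792 CPM at 0 μM, at 0.799, 0.732 and 0.364 CPM on day 5 and at 0.354, 0.300 and 0.308 CPM on day 10. Each treated library was below 0 μM of its own day, although the library at 100 μM on day 5 overlapped the range at 0 μM. The log2 fold change was -1.05 ± 0.36 (SE; adjusted p = 0.037 by edgeR), from 9 to 57 counts per library. The call was lost without either library at 0 μM (adjusted p = 0.1 and 0.25 by edgeR), without 200 μM of either day or 150 μM of day 10, without day as a covariate (0.088) and with DESeq2 (0.055). Cyp26c1 was at 0.233 to 0.397 CPM in treated cells and at 0.285 and 0.394 CPM at 0 μM, with overlapping groups. Cyp26b1 accounted for 78.2% and 79.5% of the summed Cyp26 FPKM at 0 μM and for 98.8% to 99.8% in treated cells.

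The promoter of Cyp26a1 is known for elements that bind retinoic acid receptors, and the windows of both genes are shown because they moved in opposite directions. In Cyp26a1 the capitals mark a pair of TGAACT, the reverse complement of AGTTCA, with the 5 bases between them.

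Cyp26a1 (GRCm38.p6, chr19:37697558-37697807, + strand): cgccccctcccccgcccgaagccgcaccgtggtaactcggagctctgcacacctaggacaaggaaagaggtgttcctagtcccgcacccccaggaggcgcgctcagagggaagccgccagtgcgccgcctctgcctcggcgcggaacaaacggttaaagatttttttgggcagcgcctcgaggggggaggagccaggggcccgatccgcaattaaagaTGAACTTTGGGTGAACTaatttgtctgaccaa
Cyp26b1 (GRCm38.p6, chr6:84593811-84594060, - strand): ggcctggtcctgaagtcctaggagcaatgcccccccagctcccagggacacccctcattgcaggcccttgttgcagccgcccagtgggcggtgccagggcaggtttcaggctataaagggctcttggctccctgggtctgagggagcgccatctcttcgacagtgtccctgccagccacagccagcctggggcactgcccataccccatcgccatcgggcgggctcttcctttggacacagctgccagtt

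The motif AGGTCA was also searched with G as the first base, T as the third base or both. A direct repeat of any of these 4 spellings spaced by 5 bases was searched on both strands and stood in 0.0883% of the 32851 windows. Among 37 windows of 32 tested members with a RefSeq promoter, 1 held it, that of Cyp26a1, and none held a repeat spaced by 1 or 2 bases. The window of Cyp26b1 holds none of the 4 spellings, which says nothing of elements outside these 250 bases.

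**Figure D3:**
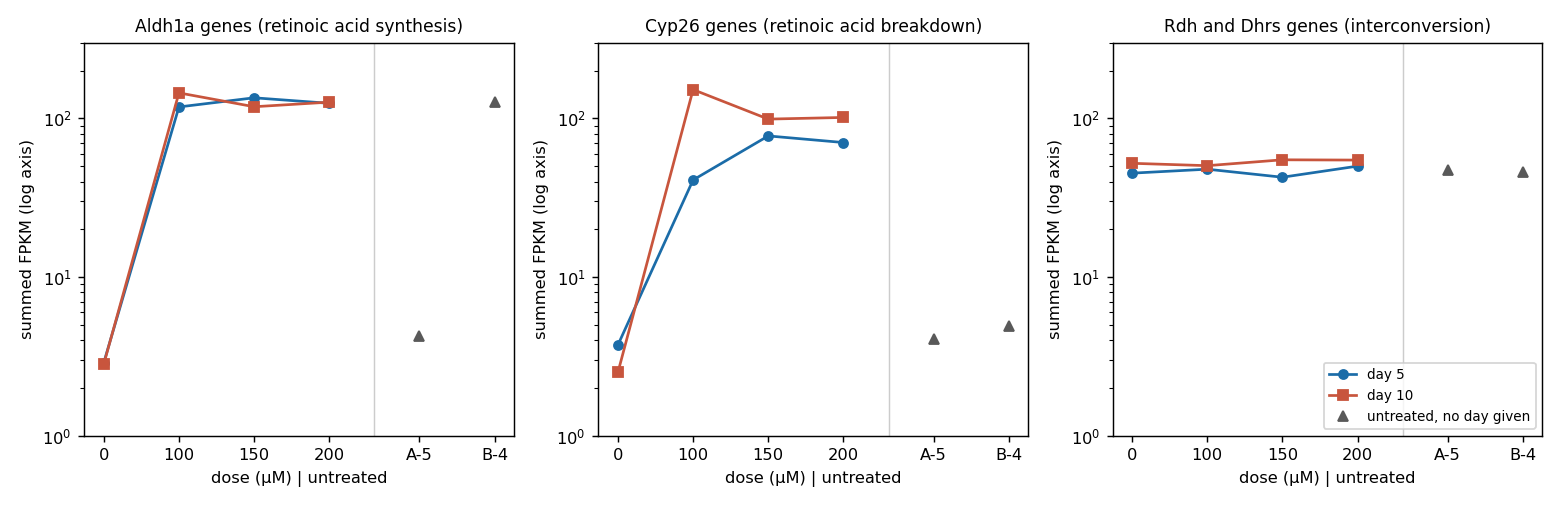
Summed FPKM (log y axis) of the Aldh1a, Cyp26 and Rdh or Dhrs genes in each library against the dose in μM, with lines joining the doses of a day and untreated libraries at the right. The Aldh1a and Cyp26 sums are higher at all doses, while the Rdh and Dhrs sum stays between 42.6 and 54.8 in the 8 libraries compared.

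Per length, Aldh1a1 and Cyp26b1 became the most abundant members. Mean FPKM of Aldh1a1 was 2.41 at 0 μM, rank 16 of the 104 genes, and 105 ± 9.70 (SD, n = 6) in treated cells, rank 1. Cyp26b1 went from 2.47 FPKM and rank 15 to 89.8 ± 37.5 FPKM (SD, n = 6) and rank 2, and Aldh1a7 from rank 22 to rank 4. The spreads of Aldh1a1 and Cyp26b1 in treated cells overlap, so their order is not settled. The ratio of Aldh1a1 to Cyp26b1 in FPKM was 0.782 and 1.27 at 0 μM, 2.50, 1.44 and 1.49 on day 5 with 100, 150 and 200 μM, and 0.802, 0.946 and 0.999 on day 10. Treated libraries of day 5 all lay above 1 and above those of day 10, which all lay below 1, and the values at 0 μM fell on both sides.

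**Figure D4:**
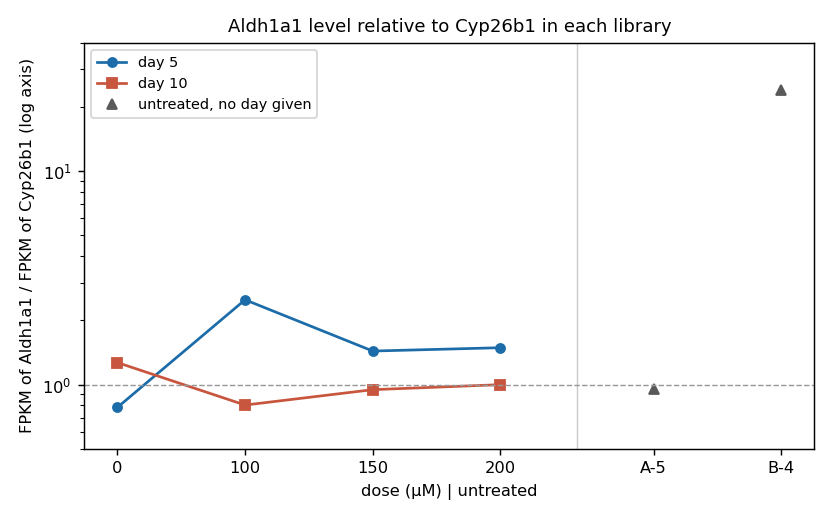
FPKM of Aldh1a1 divided by FPKM of Cyp26b1 (log y axis) in each library against the dose in μM, with untreated libraries at the right and a dashed line at a ratio of 1. Treated libraries lie between 0.802 and 2.50, A-5 at 0.955 and B-4 at 24.1.

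Interconversion of retinol and retinal moved in both directions, with smaller folds. Dhrs3, a retinal reductase that returns retinal to retinol, was at 5.88 and 10.2 CPM at 0 μM, at 17.6, 11.8 and 19.3 CPM on day 5 and at 17.2, 31.7 and 20.3 CPM on day 10. The groups did not overlap, and the log2 fold change was 1.32 ± 0.26 (SE; adjusted p = 0.003 by edgeR). Rdh12, a reductase of retinal known from photoreceptors, was at 2.50 and 3.01 CPM at 0 μM and at 6.09 to 14.6 CPM (median 8.08) in treated cells, again without overlap. Its log2 fold change was 1.69 ± 0.28 (SE; adjusted p = 0.00092 by edgeR).

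Dhrs9, which oxidizes retinol, fell from 15.4 and 19.5 CPM to between 5.79 and 10.1 CPM (median 7.91), with every treated library below both at 0 μM. Its log2 fold change was -1.13 ± 0.18 (SE; adjusted p = 0.00078 by edgeR), and without 0 μM of day 10 it was -0.76, under the fold limit. Rdh11, at 49.4 and 58.6 CPM at 0 μM and 32.8 to 43.3 CPM in treated cells, and Dhrs4, at 15.2 and 16.3 CPM against 10.0 to 12.4 CPM, were lower in 6 of 6 treated libraries, with log2 fold changes of -0.52 (adjusted p = 0.0033 by edgeR) and -0.46 (adjusted p = 0.0096 by edgeR) that missed the fold limit. Rdh10, the retinol dehydrogenase that supplies most retinal in the embryo, showed a log2 fold change of 0.04 ± 0.15 (SE), and Rdh5 one of 0.41 ± 0.19 (SE), both with overlapping groups. Rdh5 was above 0 μM of the same day in 6 of 6 treated libraries (adjusted p = 0.10 by edgeR) and Rdh10 in 3 of 6.

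Rdh1 and Rdh16f1 were called higher, with log2 fold changes of 1.19 ± 0.32 (SE; adjusted p = 0.014 by edgeR) and 1.78 ± 0.22 (SE; adjusted p = 0.00016 by edgeR), but they cannot be read apart from Rdh9. Without 0 μM of day 10 the value of Rdh1 was 0.78 (adjusted p = 0.16 by edgeR), and it was not called with limma. Rdh16f1 overlaps both other genes on the plus strand of chromosome 10, with Rdh1 from 127759721 to 127768297, Rdh16f1 from 127759787 to 127792694 and Rdh9 from 127776386 to 127792697. Transcripts of Rdh16f1 and Rdh9 were 98.8% identical over 2677 aligned bases. In B-4 the table lists 0 CPM for Rdh16f1 and 7.86 CPM for Rdh9, while in treated libraries Rdh16f1 was at 4.73 to 7.32 CPM and Rdh9 at most at 0.581 CPM. Summed over the locus, the level was 2.74 and 2.44 CPM at 0 μM and 8.02 ± 1.02 CPM (SD, n = 6) in treated cells, 3.10-fold of the mean at 0 μM. The sum of all Rdh and Dhrs members in FPKM was 45.2 and 52.1 at 0 μM and 42.6 to 54.8 in treated cells, with overlapping groups.

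No tested gene of esterification or saturation was called. Dgat1, an acyltransferase that can make retinyl esters, was at 31.1 and 31.3 CPM at 0 μM and 28.2 to 39.1 CPM in treated cells (log2 fold change 0.06 ± 0.12 SE). Retsat, which saturates retinol, was at 69.8 and 71.0 CPM and at 58.3 to 76.9 CPM (log2 fold change -0.08 ± 0.10 SE). Awat2, a wax and retinyl ester synthase, stayed at 0.173 to 0.529 CPM in all 8 libraries, and Bco1, which cleaves carotenoids to retinal, reached at most 12 counts. The groups overlapped for each of these tested genes.

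Broad P450 genes were at low levels. Their 44 members together gave 2.35 and 2.72 CPM at 0 μM and 5.39 to 10.7 CPM in treated cells, and 15 had no count in any library. Cyp2b10, a P450 of drug metabolism in liver, had 0 counts in both libraries at 0 μM. It was at 1.43, 1.38 and 0.893 CPM on day 5 and at 4.68, 3.67 and 4.85 CPM on day 10 with 100, 150 and 200 μM, at least 29.7-fold higher on average than the limit of 3 counts in the shallower library (adjusted p = 1.7e-05 by edgeR). The hepatocyte marker Hnf4a was also at 0 counts at 0 μM and seen in 5 of 6 treated libraries. It had 0 counts at 100 μM on day 5 and in B-4, where Cyp2b10 had 43 and 62 counts. The part of Hnf4a in the values of Cyp2b10 was not tested. Cyp4a12a, a fatty acid hydroxylase, also had 0 counts at 0 μM and 0.266 to 1.85 CPM in treated cells, at least 11.3-fold higher (adjusted p = 0.0011 by edgeR).

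Cyp2b23, called at an adjusted p = 0.030 by edgeR, had at most 22 counts in a library and 0 at 100 μM on day 10. At its bound it was at least 1.97-fold higher, and the call was lost without either library at 0 μM. Cyp3a57 and Cyp4a12b were at 0 CPM on day 5 and at 0.127 and 0.0633 CPM on day 10 at 0 μM, and at 0.264 to 1.10 and 0.131 to 0.472 CPM in treated cells. Both were called higher (adjusted p = 0.026 and 0.021 by edgeR), and both calls were lost without 0 μM of day 5 (adjusted p = 0.18 and 0.19). Cyp4a12a and Cyp4a12b transcripts were 98.3% identical, so their reads cannot be assigned with certainty. The 11 tested P450 genes had a median log2 fold change of 1.77, or 1.58 with the 3 genes at 0 counts set to their bounds. Cyp2c23, at 0.651 and 0.697 CPM at 0 μM and 0.905 to 1.96 CPM in treated cells, was not called (log2 fold change 0.86 ± 0.36 SE).

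Glucuronosyltransferase reads came almost wholly from the Ugt1a locus on chromosome 1, whose genes have their own first exons and share the last ones. Ugt1a7c was called higher, from 6.92 and 7.28 CPM to between 16.0 and 30.6 CPM (median 23.9), without overlap (log2 fold change 1.66 ± 0.21 SE, adjusted p = 0.00024 by edgeR). Ugt1a6a, the most abundant, was at 41.3 and 45.0 CPM at 0 μM and at 43.8 to 49.1 CPM in treated cells (log2 fold change 0.10 ± 0.09 SE). Ugt1a6b and Ugt1a1 were at 2.16 to 14.8 CPM and 0.112 to 2.23 CPM in treated cells, wide ranges that held the values at 0 μM. The longest coding transcripts of Ugt1a6a and Ugt1a7c were 100% identical over 2297 bases, the whole length of the former, so reads of the 2 genes cannot be told apart by sequence there. How reads of the shared exons were assigned is not given, so a summed level is safer. The 9 Ugt1a members gave 54.9 and 58.7 CPM at 0 μM and 78.2 ± 6.29 CPM (SD, n = 6) in treated cells, 1.38-fold, with no overlap. Both untreated libraries lay above every treated one in this sum, A-5 at 89.3 CPM and B-4 at 176 CPM. All 10 Ugt2 members were at 5 counts or fewer in every library.

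Among the other members, Hsd17b11, a lipid droplet short-chain dehydrogenase, was the most abundant of all 104 at 0 μM by FPKM, with 48.9 and 51.5 CPM. In treated cells it reached 119, 108 and 103 CPM on day 5 and 168, 106 and 122 CPM on day 10, well apart from 0 μM (log2 fold change 1.26 ± 0.16 SE, adjusted p = 0.00025 by edgeR). Heatr5a, Heatr5b and Ttc39c, which the table also annotates with this pathway, had log2 fold changes of -0.13, 0.12 and 0.28.

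Between days 5 and 10 of treatment, 2 of 41 tested members were called higher on day 10, where 0.905% of all 16020 genes were, and none was called lower, where 0.144% were. Aox4 rose from 2.46 ± 1.39 to 9.79 ± 3.09 CPM (SD, n = 3 each; log2 fold change 1.96, standard error 0.38, adjusted p = 0.032 by edgeR) and Cyp2b10 from 1.24 ± 0.297 to 4.40 ± 0.636 CPM (log2 fold change 1.82, adjusted p = 0.012 by edgeR). Aox4 lost its call without 100 or 200 μM of day 5 or 150 or 200 μM of day 10 (adjusted p = 0.054 to 0.17), and Cyp2b10 without 200 μM of either day (adjusted p = 0.061 and 0.068). Cyp26b1 (adjusted p = 0.069 by edgeR) and Aldh1a7 (log2 fold change 0.35, adjusted p = 0.15 by edgeR) were higher on day 10 without overlap and were not called. Aldh1a1 showed a log2 fold change of 0.13 between days.

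A difference of the treatment effect between days was called for 0 of 43 members, where 0.0112% of all 17799 genes were called, and a trend with dose for 0 of 42, where 0.00600% of all 16664 genes were. Without an adjusted p, 6 of 43 and 1 of 42 members had an unadjusted p under 0.05 by edgeR, and DESeq2 also called none in either comparison. The shares of all genes with an unadjusted p under 0.05 were not counted, so these member counts have no background to be read against. The test of a difference between days rests on single libraries at 0 μM. For Cyp26b1 the difference between days was 1.59 on the log2 scale (adjusted p = 0.52 by edgeR) and the slope per 50 μM was -0.01, since its highest value stood at 100 μM on day 10. Aox4 had a slope of 0.37 per 50 μM.

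Genes of the pathway outside the rule were counted from lists of carriers, receptors, response genes and the enzymes left out. Of 29 such genes, 19 were tested, 3 were called higher and 2 lower, with a median log2 fold change of -0.15. Of all 16794 genes tested, 13.4% were called higher and 5.98% lower. Adh1, an alcohol dehydrogenase that oxidizes retinol, rose from 0.533 and 0.190 CPM to between 2.35 and 3.73 CPM. The more abundant Adh7 and Adh5 were lower in 6 of 6 treated libraries and were not called. Adh7 was at 41.1 and 39.4 CPM at 0 μM and at 16.6 to 34.3 CPM in treated cells (log2 fold change -0.73, adjusted p = 0.023 by edgeR). Adh5 was at 91.4 and 91.9 CPM against 73.5 to 89.1 CPM (log2 fold change -0.19, adjusted p = 0.13 by edgeR). Rarres2, which encodes chemerin, rose (log2 fold change 2.27, adjusted p = 0.0015 by edgeR). Fabp5, which can carry retinoic acid to the nucleus, fell from 84.8 and 117 CPM to between 17.7 and 31.4 CPM, and Tgm2, a transglutaminase induced by retinoic acid in many cells, from 162 and 198 CPM to between 49.3 and 73.5 CPM. None of the 7 tested receptors and coregulators was called. Rarg, Nrip1, Ppard and Ncoa3 were lower in 6 of 6 treated libraries but missed the fold limit. Their log2 fold changes were -0.47, -0.64, -0.34 and -0.36 (adjusted p = 0.012, 0.0016, 0.015 and 0.0067 by edgeR). For Rara, Rxra and Rxrb the groups overlapped. Rarb, a receptor gene that responds to retinoic acid, had at most 8 counts.

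The untreated libraries differed from each other in these genes. A-5 was nearer to 0 μM than to treated cells in Aldh1a1 (4.32 CPM), Aldh1a7 (2.82 CPM) and Cyp26b1 (14.7 CPM), but not in all members. Its Dhrs3, at 2.10 CPM, was below both libraries at 0 μM. Its summed Ugt1a level, at 89.3 CPM, was above both of them and every treated library. B-4 held 179 CPM of Aldh1a1 and 36.5 CPM of Aldh1a7, within or just below the range of treated cells, but 23.6 CPM of Cyp26b1, nearer to 0 μM than to treated cells, and 0 counts of Aox4. Its Dhrs9, at 5.64 CPM, was below every treated library, and its Hsd17b11, at 162 CPM, among the highest. The summed Ugt1a level was 176 CPM in B-4, above all other libraries. Each is a single library, so these differences have no replicate check. With both untreated libraries in place of 0 μM, 3 of 40 tested members were called higher and 1 lower. Of all 16012 genes tested in that setting, 1078 were called higher and 460 lower. A-5 alone and B-4 alone in place of 0 μM, 2 alternatives chosen after the data were seen, each leave 1 library as the reference. Cyp26b1 kept its call in all 20 alternatives tried, with log2 fold changes of 4.30 to 6.00, whereas Aldh1a1 and Aldh1a7 lost theirs in the 3 alternatives that used B-4.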

How the data were processed

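RNA of MC3T3-E1 cells was enriched for mRNA on oligo(dT) beads, prepared with the TruSeq kit and sequenced on the Illumina platform by the authors. They deposited 1 table with raw whole-number read counts and FPKM values of each gene in 10 libraries. The processing notes list HISAT2 2.0.4 and GATK 3.2-2, and the counting program, genome build, annotation and strand setting are not given in the sources used here. Other columns hold the authors' comparisons of libraries and annotation, and of these only the KEGG pathways were used. Columns were matched to libraries by the code in the title, and no library pair had identical counts.

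Counts were analysed with edgeR 4.0.16 (TMM, filterByExpr, quasi-likelihood test), with limma 3.58.1 on log2(FPKM + 1) and DESeq2 1.42.0 as alternatives, in R 4.3.3. Treated cells were compared with 0 μM with day as a covariate, treated cells between days, and a trend per 50 μM within the treated libraries. The difference of the treatment effect between days was fitted on 4 groups. The edgeR fits were tested on simulated data with known changes. Alternatives were normalization by library totals or DESeq2 size factors, other filters (at least 1 count in total, at least 10 counts in every library), dropping the day covariate or the fold limit, the untreated libraries as controls and each library left out in turn. Named members are the retinoid enzymes with at least 10 counts in a library, and other members that were called or had at least 100 counts in a library. The members and gene lists were chosen with earlier results of these data known. Positions and transcripts are from GENCODE M21, matched by identifier for all 104 genes, and promoters from RefSeq (GRCm38.p6), matched by symbol for 32 of the 42 tested. Transcripts and promoters were aligned with Biopython 1.88. No library was left out for quality. For 1 of the called genes in the lists of pathway genes outside the rule, values are not reported here.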

Additional observations from a re-analysis of the deposited data

Results flagged for a closer look

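Within the 6 treated libraries, Dixon's test set 3 of 37 members apart for 1 library each. Its rate of about 1 in 20 holds for draws from 1 normal distribution. These libraries span 3 doses and 2 days, so that rate is not a background for them, and the share of all genes was not counted. Aldh1a1 in the library at 100 μM on day 10 (227 CPM) and Hsd17b11 in the same library (168 CPM) were far above the other 5. This library also had the fewest counts of the 8 compared and the highest Cyp26b1 and Rdh12 values. Without it, the log2 fold changes of Aldh1a1 and Hsd17b11 kept their calls. Ugt1a1 in the library at 200 μM on day 10 (2.23 CPM) was set apart from values of 0.112 to 0.354 CPM in the others, while Ugt1a6b had its lowest treated value, 2.16 CPM, in that library. The assignment of shared Ugt1a exons there was not tested.

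The untreated library B-4, which enters no main comparison, held 7 members at 50 counts or more and at more than 4 times the higher library at 0 μM. The limit of 3 counts in the shallower library at 0 μM took the place of that value where the limit was larger. How many of all genes met this rule was not counted, so the 7 members have no background to be read against. Aldh1a1 was at 179 CPM, Aldh1a7 at 36.5 CPM, Ugt1a7c at 36.6 CPM, Ugt1a6b at 24.6 CPM, Rdh9 at 7.86 CPM, Ugt1a2 at 2.55 CPM and Cyp2b10 at 2.08 CPM. In A-5, labelled the same way, they were at 4.32, 2.82, 13.8, 12.6, 0.0655, 0.196 and 0.0655 CPM. For Ugt1a2, which stayed at 12 counts or fewer in the other 9 libraries, and for Rdh9, whose overlapping neighbour Rdh16f1 was listed at 0 in B-4, no treated library came near that level. What B-4 received, and for how long, is not given by its labels, and a cause was not tested.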

How the results depend on the processing

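The 17 members called higher became 9 with at least 10 counts required in every library (24 members tested), 8 with limma on log2(FPKM + 1), 3 with both untreated libraries replacing 0 μM, 6 with them added to it, and, in alternatives chosen after the data were seen, 11 with A-5 alone and 6 with B-4 alone in place of 0 μM. They were 14 to 16 when each library was left out in turn and 17 or 18 under the other settings. The 2 called lower became 4 without the fold limit, 1 with DESeq2, with the stricter filter, without the day covariate and with both untreated libraries replacing 0 μM, 0 with limma and with the untreated libraries added, and 0 to 2 with each library left out. The effect of treatment differed between days for 1 member instead of 0 with a filter of at least 1 count in total. Of the 2 members called between days, 0 to 2 were called with each treated library left out. The cause of these changes was not tested, apart from members no longer tested under the stricter filter and the smaller fold on the log2(FPKM + 1) scale for low genes. Over all genes tested, fewer were also called higher with the stricter filter, with limma and with both untreated libraries replacing or added to 0 μM. In those settings fewer of all genes were called lower as well, and without the fold limit more were. The member counts alone therefore do not set a change in the members apart from one over all genes.

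Directions turned in 52 of the 720 single-gene alternatives, 46 of them for members that were not called. With both untreated libraries replacing 0 μM, the log2 fold change was 0.091 for Retsat, -0.039 for Awat2, -0.35 for Rdh10, -0.026 for Rdh5, -3.48 for Rdh9, 0.22 for Heatr5a, -0.078 for Ttc39c, -0.90 for Ugt1a6a, -1.14 for Ugt1a6b and -0.14 for Ugt1a7c. With them added to 0 μM it was 0.0100 for Retsat, -0.0010 for Awat2, -0.15 for Rdh10, -2.51 for Rdh9, 0.047 for Heatr5a, -0.48 for Ugt1a6a and -0.54 for Ugt1a6b. With A-5 alone it was 0.22 for Retsat, -0.34 for Rdh10, 0.031 for Heatr5a, -0.43 for Ugt1a6a and -0.58 for Ugt1a6b. With B-4 alone it was -0.30 for Awat2, -0.041 for Dgat1, 0.045 for Dhrs4, 0.54 for Dhrs9, -0.30 for Rdh1, -0.34 for Rdh10, 0.25 for Rdh11, -0.16 for Rdh5, -4.44 for Rdh9, 0.46 for Heatr5a, -0.40 for Hsd17b11, -0.53 for Ttc39c, 0.52 for Cyp26a1, -1.24 for Ugt1a6a, -1.53 for Ugt1a6b and -0.66 for Ugt1a7c. Scaling to library totals gave -0.014 for Awat2 and -0.016 for Rdh10, and limma -0.0028 for Rdh10. With each library left out in turn, values spanned 0 for Awat2 (-0.088 to 0.19), Dgat1 (-0.010 to 0.12), Rdh10 (-0.22 to 0.31), Cyp26c1 (-0.33 to 0.021), Aox3 (-0.60 to 0.060), Ugt1a1 (-0.61 to 2.52) and Ugt1a6b (-0.067 to 0.83). The labels give no replicate numbers. With dose as a replicate block, pairing the days by dose, 2 members were called between days, again Aox4 and Cyp2b10 (adjusted p = 0.014 and 0.016 by edgeR), a fit chosen after the data were seen.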
